A study of Ovis aries with 16 samples.

Results

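The miR-200 family of epithelial microRNAs was followed through liver and thigh muscle of female sheep that had been exposed to bisphenol A (BPA) before birth. Its members were taken by name, and 3 of the 105 listed miRNAs belong to it: MIR200A, MIR200B and MIR200C. All 3 had reads in each of the 16 libraries. MIR429 and MIR141, the other members of the family, had no row in the table analysed here.

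BPA is a plastics monomer with oestrogen-like activity. In the BPA groups the mothers of 4 animals (910, 918, 977 and 984) had received it in corn oil under the skin, at 0.5 mg per kg per day between days 30 and 90 of gestation. In the control groups the mothers of 4 animals (902, 908, 924 and 928) had received the corn oil alone. The mothers were Suffolk sheep, and the labels' protocols name no dosing of the daughters with BPA. Whether any of the daughters share a parent is not given. All daughters were fasted for 48 hours and killed at an age of about 21 months, 24 hours after the second of 2 injections of prostaglandin F2α spaced 11 days apart to synchronize the cycle. Each animal gave 1 library from the tip of the left liver lobe and 1 from the vastus lateralis, a thigh muscle, so that there were 4 libraries in each of 4 groups.

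miR-200 miRNAs are known as keepers of the epithelial state. In human and mouse cells they repress ZEB1 and ZEB2, transcription factors that shut down the gene for the adhesion protein E-cadherin, and their loss accompanies the change of epithelial cells into migrating, fibroblast-like cells. In human and mouse, miR-200a, miR-200b and miR-429 are cut from one primary transcript, and miR-200c and miR-141 from another. miR-200b and miR-200c share their seed, the stretch that pairs with target RNAs, while the seed of miR-200a differs from it. In liver the family is known above all from the lining of the bile ducts, and skeletal muscle fibres are not epithelial.

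The gene order of the sheep reference was of the same kind. In the RefSeq gene table (assembly ARS-UI_Ramb_v3.0), MIR200A and MIR200B are next to each other, with no gene between them, and are flanked by the protein-coding genes TTLL10 and C12H1orf159. MIR200C lies on another chromosome, between a snoRNA gene and PTPN6, which encodes a phosphatase of blood cells. Their annotated hairpins are 86 nucleotides long for MIR200A, 59 for MIR200B and 65 for MIR200C. The assembly that the authors used is not given in the sources used here, so positions are left out.

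Values are normalized counts, that is, reads divided by 1 size factor per library, as the authors deposited them. They are not corrected for transcript length or for how well a miRNA is captured, so levels are compared between libraries for 1 miRNA at a time, and members are set against each other only as ratios of reads within a library. The size factors had been set separately in liver and in muscle. The libraries held 578150 to 1383538 miRNA reads in BPA livers and 94393 to 240815 in control livers, and 596919 to 1044886 in BPA muscles and 471691 to 559705 in control muscles. The livers also differed in the share of snRNA, the RNA of the splicing machinery, with 0.137 to 0.279 snRNA reads per 100 miRNA reads in BPA livers and 12.4 to 41.2 in control livers. Both tissues carried their own miRNAs. MIR133, a miRNA of striated muscle, had 244661 to 373488 normalized counts in the 8 muscles and 115 to 717 in the 8 livers. MIR194, which is known from liver and gut epithelium, had 107 to 206 in muscles and 7863 to 10615 in livers.

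In the liver, MIR200B was higher in BPA animals than in controls, and its neighbour MIR200A was not called. MIR200B had 1124, 1395, 1211 and 979.5 normalized counts in the livers of BPA animals 910, 918, 977 and 984. It had 308, 453, 244 and 174 in the livers of control animals 902, 908, 924 and 928. Every BPA liver lay above every control liver, and the closest pair of libraries differed by 2.16 times. The mean was 1177 ± 174 in BPA livers and 295 ± 118.8 in control livers (SD, n = 4 each), a ratio of 3.99. The log2 fold change on the log2(value + 1) scale was 2.07 ± 0.30 (SE, 95% interval 1.43 to 2.71), with a Benjamini-Hochberg adjusted p of 7.08e-04 in limma. This was both the highest log2 fold change and the smallest p of the 78 miRNAs tested in liver, of which 11.5% were called at an adjusted p under 0.05. Of the 3 members, MIR200B was the 1 called. Since these are bulk samples, a change in the number of cells that carry a miRNA and a change in its amount per cell cannot be told apart.

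MIR200A had 324, 395, 561 and 547 normalized counts in BPA livers, against 559.7, 823, 428 and 295 in control livers. The groups overlapped, and both the highest and the lowest of the 8 values were controls. The mean was 456 ± 116 in BPA livers and 526 ± 226 in control livers (SD, n = 4 each). The log2 fold change was -0.14 ± 0.33 (SE, 95% interval -0.85 to 0.56, limma adjusted p = 0.9028). The upper end of this interval lies below the lower end of that of MIR200B.

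MIR200C, the member at the other locus, was the most variable of the family in liver. It had 55.7, 175, 46.7 and 31.7 normalized counts in BPA livers, against 90.9, 90.3, 29.8 and 12.7 in control livers. The highest value was BPA animal 918 and the lowest was control animal 928, and the other 6 libraries were mixed. The value of animal 928 rested on 4 reads. The log2 fold change was 0.54 ± 0.63 (SE, 95% interval -0.82 to 1.89, limma adjusted p = 0.6797). That interval spans 0 and overlaps the interval of MIR200B (1.43 to 2.71). The median log2 fold change of the family in liver, 0.54, is that of MIR200C itself, against 0.05 over all 78 miRNAs tested.

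**Figure D1:**
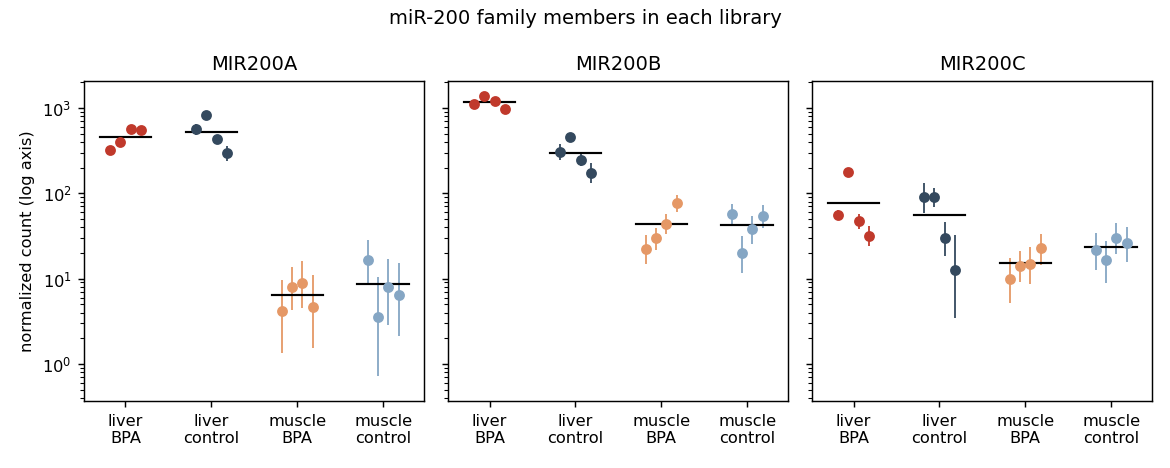
Normalized counts of MIR200A, MIR200B and MIR200C on a log axis in each of the 16 libraries, with BPA left of control within liver and within muscle; points are single animals. In liver the 4 BPA points of MIR200B (979.5 to 1395) stand above the 4 control points (174 to 453), while the groups overlap for MIR200A and MIR200C and for all 3 members in muscle.

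The depth and the RNA classes of the libraries moved with the liver groups. MIR200B was counted with 1822 to 4236 reads in BPA livers and 55 to 306 in control livers. When all livers were thinned at random to 94393 miRNA reads, the depth of the shallowest, its log2 fold change was 2.02 (limma adjusted p = 4.00e-04). The part of the snRNA share in the result was not tested. The library codes in the labels also differed, and their meaning is not given. BPA livers carried 2 codes up to 79 (71 and 72) and 2 above (95 and 96). Control livers carried 1 code up to 79 (65) and 3 above. These 3 control codes were all higher than 96. Above 79 the codes of BPA and control livers therefore shared no range. Up to 79 they shared none either, as 65 lies below 71 and 72. The cut at 79 was set here and is not in the labels. Liver group and code therefore cannot be told apart in either range. Among codes up to 79, MIR200B had 1211 and 979.5 normalized counts in BPA livers 977 and 984 and 308 in control liver 902, which is 1 control library and allows no test. With the range of codes as a covariate, which left this 1 control liver for the comparison, the log2 fold change was 1.82. In muscle the control codes were 73 to 76, and the BPA codes were 77 to 79 and 97 (animal 984). Group and code therefore cannot be told apart in muscle either.

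A ratio of reads within a library does not depend on the size factor, and it set MIR200B against its neighbour directly. In BPA livers 910, 918, 977 and 984 there were 3.47, 3.54, 2.16 and 1.79 MIR200B reads per MIR200A read. In control livers 902, 908, 924 and 928 there were 0.550, 0.550, 0.571 and 0.591. MIR200B reads outnumbered MIR200A reads in all 4 BPA livers and were fewer in all 4 control livers. The ratio was 4.63 times higher in BPA livers, a log2 difference of 2.21. The two-sided exact permutation test gave p = 0.0286, which is the smallest that 4 against 4 allows, and 0.171 after Benjamini-Hochberg adjustment over the 6 ratio comparisons made. With that adjustment no single comparison of this size could have passed 0.05.

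The same ratio varied among BPA livers and differed little among control livers. Its log2 values had an SD of 0.49 in BPA livers and of 0.05 in control livers, although the MIR200A level of the control livers ranged from 295 to 823. As a share of the reads of both, MIR200B made up 77.6%, 77.95%, 68.4% and 64.2% in BPA livers, and 35.5%, 35.5%, 36.4% and 37.2% in control livers. The exact binomial 95% intervals ran from 62.4% to 79.4% across the BPA livers and from 29.4% to 45.5% across the control livers. Every control share lay within the interval of each control liver. The closeness of the control ratios is therefore finer than these read counts resolve. The intervals cover counting error only, because reads amplified by PCR without molecular identifiers are not independent molecules. Within the BPA livers the shares were higher in animals 910 and 918 (codes 95 and 96) and lower in 977 and 984 (codes 71 and 72). Of the lower pair, code 71 had the higher share. Control liver 902 (code 65) and the control livers with codes above 79 did not separate in this way.

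**Figure D2:**
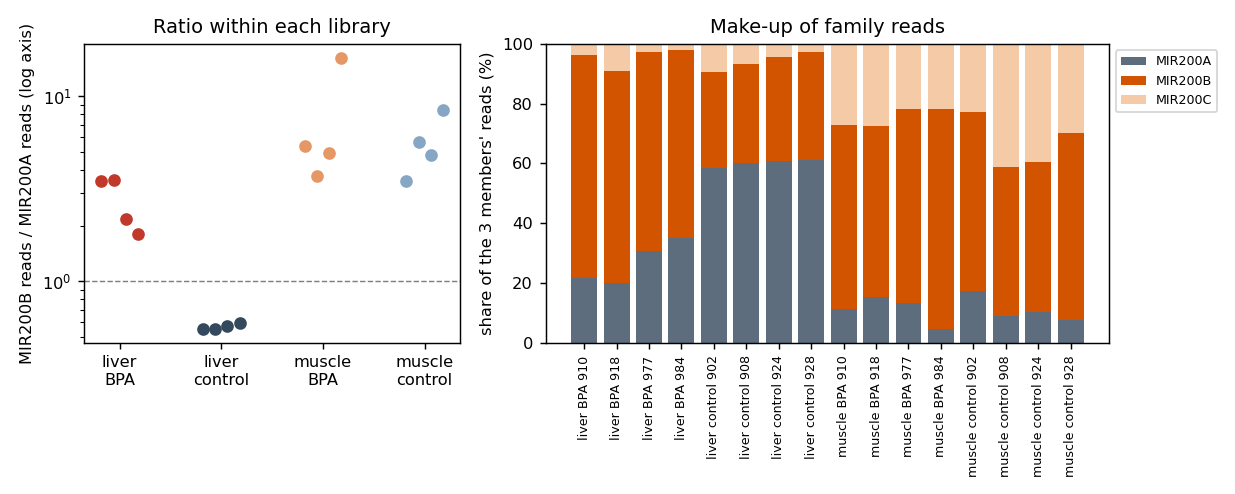
MIR200B reads per MIR200A read in each library on a log axis, and the percentage of family reads that each member contributes, with BPA left of control in each tissue. BPA livers sit between 1.79 and 3.54 and control livers between 0.550 and 0.591; in muscle, where MIR200A had 3 to 13 reads, the groups overlap.

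In the ratios with MIR200C the groups were less clearly apart. There were 20.2, 7.96, 25.9 and 30.9 MIR200B reads per MIR200C read in BPA livers, against 3.38, 5.02, 8.20 and 13.8 in control livers. BPA animal 918, whose MIR200C was high, lay among the controls. The log2 difference was 1.57 (exact permutation p = 0.0857, adjusted 0.257). For MIR200A over MIR200C the log2 difference in liver was -0.65 (exact permutation p = 0.4571, adjusted 0.617). Of all family reads, MIR200A gave 20.1% to 35.1% in BPA livers and 58.4% to 61.2% in control livers, and MIR200C gave 2.04% to 8.92% in BPA livers and 2.63% to 9.49% in control livers. The 3 members together summed to 1504 to 1965 normalized counts in BPA livers and 482 to 1367 in control livers. Among the members themselves, only MIR200B did not overlap between the liver groups. The sum also adds miRNAs that may not be captured equally well.

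In muscle no member was called. MIR200B had 22.5, 29.6, 44.0 and 76.2 normalized counts in BPA muscles, against 56.6, 19.97, 38.1 and 54.3 in control muscles. The values of the groups were interleaved, and the means were 43.1 ± 23.8 in BPA muscles and 42.3 ± 17.0 in control muscles (SD, n = 4 each). The log2 fold change was -0.02 ± 0.39 (SE, 95% interval -0.85 to 0.82, limma adjusted p = 0.9814), an interval that leaves out the 2.07 of liver. In limma 0% of the 70 miRNAs tested in muscle were called, with 3 at an unadjusted p under 0.05, and edgeR and DESeq2 called 0 as well.

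MIR200A was near the limit of detection in muscle, with 3 to 13 reads per library. It had 4.16, 8.03, 8.97 and 4.70 normalized counts in BPA muscles, against 16.4, 3.52, 7.89 and 6.46 in control muscles. The groups overlapped, with both extremes among the controls (log2 fold change -0.24 ± 0.43 SE, limma adjusted p = 0.8461). MIR200C had 9.98, 14.2, 14.7 and 22.6 normalized counts in BPA muscles, against 21.4, 16.4, 30.2 and 25.9 in control muscles. Of the BPA muscles, 3 lay below every control muscle, and animal 984 lay among them. Its log2 fold change of -0.60 ± 0.32 (SE) was the lowest of the 70 miRNAs tested, with an unadjusted limma p of 0.0784 and an adjusted p of 0.7060. The family median, which is the value of MIR200A, was -0.24, against 0.01 over all miRNAs tested in muscle.

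The read ratio of the neighbours also overlapped between the muscle groups. There were 5.40, 3.69, 4.91 and 16.2 MIR200B reads per MIR200A read in BPA muscles, against 3.46, 5.67, 4.83 and 8.40 in control muscles. Of the 8 muscles, 7 were above every liver, and control muscle 902, at 3.46, lay just under BPA livers 910 and 918. The log2 difference was 0.27 (exact permutation p = 0.6286, adjusted 0.629). For MIR200B over MIR200C it was 0.61 (exact permutation p = 0.1429, adjusted 0.286), and for MIR200A over MIR200C 0.34 (exact permutation p = 0.5143, adjusted 0.617).

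**Figure D3:**
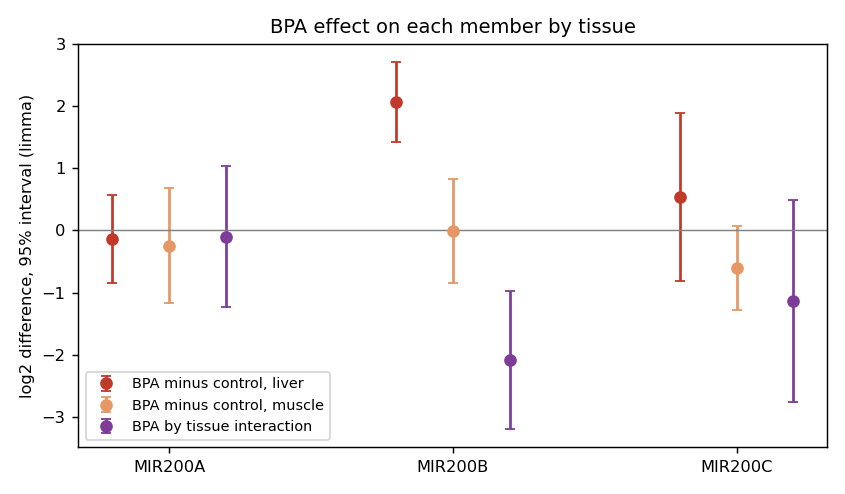
Log2 fold changes of BPA over control in liver and in muscle, and the difference between the tissues (muscle effect minus liver effect), for MIR200A, MIR200B and MIR200C; points are limma estimates and bars 95% intervals. The interval of MIR200B lies above 0 in liver (1.43 to 2.71), spans 0 in muscle and lies below 0 for the difference.

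Whether the BPA effect differed between the tissues was tested as an interaction over all 16 libraries. For MIR200B the effect in muscle minus that in liver was -2.08 ± 0.53 log2 units (SE, 95% interval -3.19 to -0.98, limma adjusted p = 0.0344). It was the most negative of 76 miRNAs tested, of which 2.63% were called. The call was lost in edgeR (adjusted p = 0.0554), with values scaled to the total of miRNA reads (0.0595) and with a replicate block for the animal (0.0523), and also when any 1 animal other than 908 or 984 was left out (0.0978 to 0.2747), always with the same sign. The interaction of MIR200A was -0.10 ± 0.54 (limma adjusted p = 0.9533) and that of MIR200C -1.14 ± 0.78 (limma adjusted p = 0.3915).

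Between the tissues all 3 members were lower in muscle than in liver on the deposited scale. MIR200A averaged 7.51 ± 4.09 normalized counts in muscle and 491 ± 170 in liver (SD, n = 8 each), a log2 difference of -5.91 ± 0.27 (SE, limma adjusted p = 2.39e-13). MIR200B averaged 42.7 ± 19.2 in muscle and 736 ± 491 in liver, with a log2 difference of -3.84 ± 0.26 (limma adjusted p = 1.49e-10). MIR200C averaged 19.4 ± 6.76 in muscle and 66.7 ± 52.1 in liver, with a log2 difference of -1.43 ± 0.39 (limma adjusted p = 0.0023). No muscle reached the lowest liver for MIR200A or MIR200B, whereas for MIR200C the control livers of 924 (29.8) and 928 (12.7) lay within the range of the muscles (9.98 to 30.2).

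Most miRNAs differed between the tissues, and 82.9% of the 76 tested were called. MIR200A had the second most negative difference, MIR200B the fourth and MIR200C the 24th. Because liver and muscle had been scaled apart, the median of all miRNAs was -0.73 on the deposited scale. After rescaling over both tissues the median was -0.15 and 76.3% were called, with log2 differences of -5.36 for MIR200A (limma adjusted p = 2.09e-12) and -3.26 for MIR200B (limma adjusted p = 9.79e-10). That of MIR200C was -0.87 (limma adjusted p = 0.0506) and no longer passed. The order of the members' differences was the same on both scales. It could hardly change, because rescaling multiplies all miRNAs of a library by 1 factor.

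**Figure D4:**
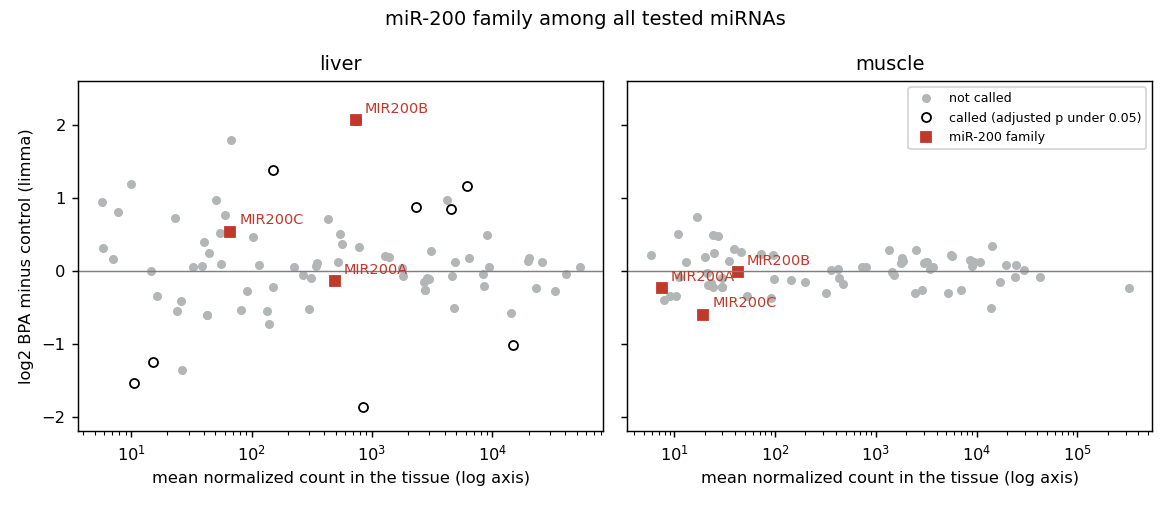
Log2 fold change of BPA over control against mean normalized count (log axis) for the miRNAs tested in liver and in muscle, with called miRNAs as open circles and the 3 family members as squares. MIR200B has the highest value in liver (2.07) and lies near 0 in muscle (-0.02).

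Other neighbouring miRNA genes were examined after the values of MIR200A and MIR200B had been seen, to place the gap between them. Both miRNAs were tested in liver for 30 pairs whose genes lie within 10 kb in the RefSeq annotation. The log2 BPA effects of MIR200A and MIR200B differed by 2.21, the fourth largest gap, and the median gap was 0.69. Larger gaps were those of MIR154A and MIR154B (2.72), MIR494 and MIR543 (2.34) and MIR485 and MIR154A (2.26), and the next below was that of MIR30D and MIR30B (2.05). The read ratio of the neighbours did not overlap between BPA and control livers in 10 of the 30 pairs, and overlapped in all 23 pairs of muscle, where the gap of MIR200A and MIR200B was 0.23. The SD of the log2 ratio among control livers had a median of 0.44 over the pairs. It was 0.05 for MIR200A and MIR200B, which is finer than their reads resolve. The 1 pair with a smaller SD, of 0, was MIR485 and MIR154A, with equal reads of both in each control liver. In control livers 1 read stood for 1.48 to 3.50 normalized counts. The reads of the other pairs are not printed here, and gaps that rest on few reads are less certain. Pairs share miRNAs and libraries and are not independent, so these are descriptions.

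**Figure D5:**
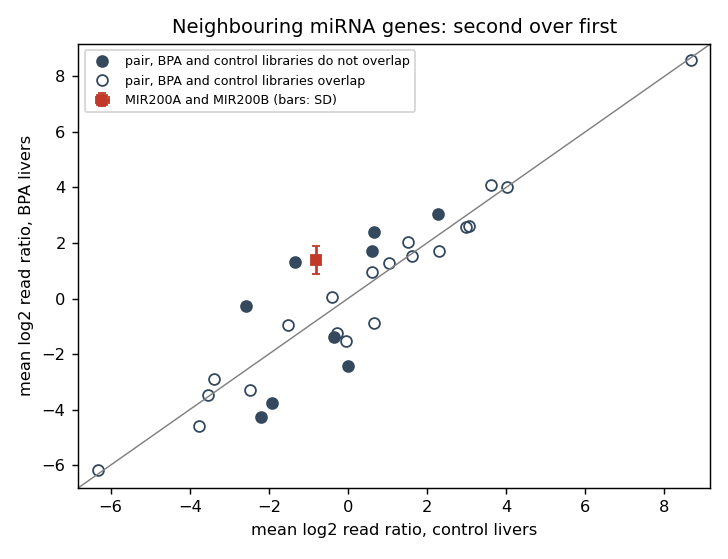
Mean log2 ratio of reads of neighbouring miRNA genes in BPA livers (vertical) against control livers (horizontal) for 30 pairs, with filled points where the BPA and control livers do not overlap and the line of equal ratios. The pair of MIR200A and MIR200B (square, bars are SD) lies above the line, at 1.39 in BPA livers and -0.82 in control livers.

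Markers of cell types that liver and muscle hold were read beside the family. Of 14 names of other epithelial miRNAs, MIR194 was the 1 listed, with 9222 to 9821 normalized counts in BPA livers and 7863 to 10615 in control livers (log2 fold change 0.05, limma adjusted p = 0.9080). The hepatocyte list had 2 of 5 names listed, MIR148A and MIR194, with a summed level of 40787 to 66110 in BPA livers and 45135 to 61597 in control livers. The stellate-cell and fibrosis list of 11 names had 7 listed miRNAs. Among them MIR29B-1 and MIR29B-2 are copies of 1 name, with identical values. With both copies counted, the list summed to 35200 to 64331 in BPA livers and 38060 to 51866 in control livers. Its median log2 fold change in liver, again with both copies, was -0.08, and its members went both ways. The values were -0.52 for MIR29A, -0.61 for each MIR29B copy and -0.08 for MIR21. They were 0.12 for MIR143, 0.50 for MIR199A and 0.36 for MIR221. MIR143 had the highest level of the list, with a mean of 25645 in livers. MIR150, of lymphocytes (1 of 5 leukocyte names), had 231 to 493 in BPA livers and 199 to 549 in control livers. MIR221, of endothelium (1 of 3), had 435 to 703 in BPA livers and 345 to 730 in control livers. MIR133 (1 of 8 striated-muscle names) had 122 to 574 in BPA livers and 115 to 717 in control livers, and none of 3 erythroid names was listed. No listed member of these lists was called for BPA in limma in either tissue, and the summed levels of the BPA and control livers overlapped in every list. Of all miRNAs tested, 11.5% of 78 were called in liver and 0% of 70 in muscle. With so few listed miRNAs, the lack of calls therefore says little about the lists. The lists hold no marker that belongs to bile-duct cells alone, so their share in the samples was not measured.

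The miRNAs whose pattern was most like that of each member were named by Pearson's r on log2(value + 1) over the 16 libraries, among 75 others. After centring on the tissue mean, MIR200B was most like MIR409 (0.76), MIR25 (0.69) and MIR191 (0.68), with MIR200C eighth at 0.54 and MIR200A 26th at 0.23. MIR200A was most like MIR411A (0.61), MIR17 (0.58) and MIR655 (0.55), and MIR200C most like MIR200B (0.54), MIR382 (0.51) and MIR27A (0.51). After centring on the 4 group means, which takes the BPA difference out, MIR200B was most like MIR200C (0.65) and MIR200A (0.55), then MIR495 (0.50). MIR200A was then most like MIR411A (0.61), MIR17 (0.59) and MIR200B (0.55), and MIR200C most like MIR200B (0.65), MIR27A (0.65) and MIR382 (0.60). The points share libraries, size factors and depth, and no p is given.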

How the data were processed

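The authors deposited normalized counts, a signal in which reads are divided by 1 size factor per library. Per the submitters' processing notes, STAR 2.6.0c, featureCounts 1.6.1 and cutadapt 3.2 were used, with no role stated. Not given in the sources used here are the genome build, annotation, normalization tool and the handling of reads that match several miRNAs or either arm of a hairpin. All deposited values were whole multiples of 1 step per library (tolerance 0.001), which gave reads, and size factors had been set within each RNA class and tissue.

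limma 3.58.1 (R 4.3.3) with a trend was fitted on log2(value + 1) of all miRNAs with a mean of at least 5, two-sided, with Benjamini-Hochberg adjustment over all of them and a threshold of 0.05. This scale understates changes of low miRNAs. Read ratios, with 0.5 reads added on the log scale, were tested by exact permutation over the 70 assignments of libraries (numpy 2.4.6). The exact binomial intervals were computed with scipy 1.17.1. edgeR 4.0.16 and DESeq2 1.42.0 on the recovered reads were alternatives. The limma fit was tested on simulated data. Libraries of a group differed by more than counting noise in every pair (chi-square per degree of freedom at least 18.2).

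The replicate number is the animal, so it pairs liver with muscle. The deviations of an animal's 2 libraries from their group means correlated by -0.68 to 0.44 over 76 miRNAs, and in 0 of 8 animals was the own muscle closest. Members, lists and tests were chosen with earlier results of these data known. Named by rule are the members, the highest list members and the 3 miRNAs most similar to each member. The neighbouring pairs were named for the size of their gap, after their values were seen.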

Additional observations from a re-analysis of the deposited data

Results flagged for a closer look

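Among 24 groups of 4 libraries (3 members and 3 read ratios in 4 groups each), 3 held a library far from the others by Dixon's test, which chance gives in about 1 in 20 groups. MIR200C had 175 normalized counts in BPA liver 918, and the other BPA livers had 31.7 to 55.7. BPA muscle 984 had 16.2 MIR200B reads per MIR200A read, from 81 and 5 reads, and the other BPA muscles had 3.69 to 5.40. The library code of BPA muscle 984 was 97, and those of the other BPA muscles were 77 to 79. Control muscle 902 had 0.765 MIR200A reads per MIR200C read, from 13 and 17 reads, and the other control muscles had 0.214 to 0.261. For MIR200B the BPA effect in muscle minus that in liver was -2.08 log2 units (limma adjusted p = 0.0344 with no block for the animal). Each animal gave both tissues, and the call was lost with a replicate block of animals (limma adjusted p = 0.0523), with a fixed animal term (0.1973) and when any 1 animal other than 908 or 984 was left out (0.0978 to 0.2747).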

How the results depend on the processing

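Of 280 recomputed values, 248 kept their direction and side of the threshold, 18 changed sign (1 of them, MIR200A in liver with 1 size factor over the 4 RNA classes, also gained a call), 11 lost a call and 3 gained one with the same sign. The BPA effect on MIR200B in liver stayed called in every refit over all miRNAs without the code covariate, at 1.98 to 3.53 log2 units. It also stayed called without single libraries, at 1.85 to 2.30. With the code covariate, which left 1 control liver for the comparison, it was 1.82. The exact permutation test of MIR200B alone in liver gave p = 0.0286, the smallest that 4 against 4 allows and not adjusted for the number of miRNAs. Its interaction with tissue lost its call in edgeR (-1.93), with values scaled to the total of miRNA reads (-1.99), with a replicate block of animals (-2.08, limma adjusted p = 0.0523) and with a replicate block as a fixed animal term added after seeing the data (-2.08, 0.1973), and ran from -2.63 to -1.71 without single animals. The replicate block changed no other call. The number of miRNAs called for the interaction, 2 in the main test, was 1 in edgeR, 1 and 0 with the blocks, and 0 to 9 without single animals. In liver, where 9 were called, it was 4 to 15 without single libraries.

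With 1 size factor over the 4 RNA classes the median of all miRNAs moved to 1.51 in liver, -0.21 in muscle and -1.98 for the interaction, and 65 miRNAs were called in liver and 70 for the interaction. Liver effects were then 1.32 for MIR200A (-0.19 relative to that median), 1.96 for MIR200C (0.45) and 3.53 for MIR200B (2.02), and interactions -2.03 for MIR200A and -3.04 for MIR200C, all of them called. Muscle minus liver for MIR200C lost its call on the scale of both tissues (-0.87).

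The other sign changes touched effects that were called neither before nor after. MIR200B in muscle was 0.046 in edgeR, 0.017 in DESeq2, 0.10 with values scaled to the total of miRNA reads and -0.34 to 0.24 without single libraries. MIR200C in liver was -1.22 with the code range as a covariate, a fit that left 1 control liver for the comparison, and -0.019 to 0.90 without single libraries. Without single libraries or animals, MIR200A ran from -0.39 to 0.11 in liver, from -0.55 to 0.10 in muscle and from -0.65 to 0.18 for the interaction, and the log2 ratio of MIR200B to MIR200A in muscle from -0.16 to 0.52. The log2 ratio of MIR200A to MIR200C in liver was 1.24 within library codes up to 79, an alternative added after seeing the data. The cause of these changes was not tested. With a minimum mean of 20 not every member gave a value in muscle. Depth limits MIR200A in muscle (3 to 13 reads) and MIR200C in control livers (4 to 61 reads).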

Other observations

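The snoRNA gene next to MIR200C in the reference annotation had 2 to 4 reads in BPA livers, 0 to 6 in control livers, 2 to 8 in BPA muscles and 1 to 5 in control muscles, too few for a comparison.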
